A study of Mus musculus with 6 samples.

Results

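The high mobility group (HMG) chromatin proteins are described here by 9 genes in the lungs of mouse embryos with an epithelial deletion of Rptor: Hmgb1, Hmgb2 and Hmgb3 of the HMGB family, Hmga1 and Hmga2 of the HMGA family, and Hmgn1, Hmgn2, Hmgn3 and Hmgn5 of the HMGN family. The members were picked by gene symbol among the 23420 genes listed, and they were named with the difference between control and mutant lungs already known, so that difference is given for each member as a description with no p. Where members past a threshold are counted, the count stands beside the share of all tested genes. All 9 members were listed and all 9 passed the filter on low values.

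Whole lungs of E11.5 embryos (E for embryonic day) were sequenced as bulk RNA. By the labels, the 3 control pools had the genotype Rptor f/+; Shh Cre/+, and the genotype of the 3 mutant pools was Rptor f/f; Shh Cre/+. By the methods of the study, a pool held 3 or 4 lungs of 1 genotype. Both genotypes carry Shh Cre, which recombines the floxed allele in the lung epithelium, and by their labels the controls also carry 1 floxed Rptor allele. Rptor encodes Raptor, a subunit that the growth-regulating kinase complex mTORC1 needs. Mesenchyme, vessels and mesothelium of the same lungs are not the target of Shh Cre and were sequenced together with the epithelium.

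HMG proteins are abundant, mobile, non-histone proteins that alter the shape and accessibility of chromatin. HMGB proteins bend DNA with their HMG boxes, HMGA proteins hold the minor groove of AT-rich DNA with AT-hooks, and HMGN proteins bind the nucleosome itself and compete with linker histones. Hmga2 is known as an embryonic gene that is shut off in most adult tissues and is repressed by the let-7 microRNAs, and Hmgb1 is also known as an alarm signal when it is released from cells.

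Hmgb1 was lower in the mutant lungs and the other 8 members differed little or not beyond the spread between pools. Mutant pools held 77.7% of the control level of Hmgb1, and no mutant pool reached the lowest control pool. Among the other 8 members the control and mutant pools overlapped, and their log2 differences were between 0.013 and 0.24 in size. Hmga2 and Hmgn2 were the members with the widest spread among control pools, and in both of them control pool 3 was the pool that stood apart.

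Each library held 20197642 to 21276090 reads in genes, as recovered from the deposited normalized counts. Rptor itself had 2126, 2193 and 2279 normalized counts for controls 1 to 3, against 2023, 2137 and 2148 for mutants 1 to 3. The log2 difference of Rptor was -0.06 ± 0.05 (SE, n = 3 pools per group; adjusted p = 0.584 with limma), and the two-sided exact permutation test gave p = 0.3, where 0.1 is the smallest p that 3 pools against 3 can give. Gene counts keep the reads of exons that are not deleted, and the labels do not name the deleted exons, so these values do not check the genotypes. Control pool 3 stood apart from the other 5 libraries: limma called 86 genes with all 6 libraries and 468 without control pool 3. Xist, the RNA that coats the inactive X chromosome in female cells, had 4599, 309 and 12989 normalized counts for controls 1 to 3, against 41.9, 466 and 161 for mutants 1 to 3. The labels give no sex for the lungs in a pool.

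The promoters of the HMGB genes are shown because these genes are close relatives, and control and mutant pools did not overlap in 1 of them. The windows reach from 250 bases before to 50 bases after a transcript start and were taken from RefSeq (GRCm38.p6), in which 8 of the 9 members matched. Capitals mark CCAAT, or ATTGG where the motif lies on the other strand, the pentamer at the core of the site of the factor NF-Y.

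Hmgb1, chr5:149053008-149053307, minus strand: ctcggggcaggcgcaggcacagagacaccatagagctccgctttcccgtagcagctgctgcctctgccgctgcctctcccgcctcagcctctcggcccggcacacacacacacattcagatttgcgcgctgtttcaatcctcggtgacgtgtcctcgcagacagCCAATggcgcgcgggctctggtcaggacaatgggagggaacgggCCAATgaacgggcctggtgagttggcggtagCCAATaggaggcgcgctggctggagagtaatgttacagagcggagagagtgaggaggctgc
Hmgb2, chr8:57511593-57511892, plus strand: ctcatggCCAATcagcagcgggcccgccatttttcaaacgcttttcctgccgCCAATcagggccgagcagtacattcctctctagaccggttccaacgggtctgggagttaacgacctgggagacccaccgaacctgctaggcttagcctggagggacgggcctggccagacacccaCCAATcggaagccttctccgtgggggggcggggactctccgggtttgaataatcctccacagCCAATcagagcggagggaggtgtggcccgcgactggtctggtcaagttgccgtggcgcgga
Hmgb3, chrX:71555667-71555966, plus strand: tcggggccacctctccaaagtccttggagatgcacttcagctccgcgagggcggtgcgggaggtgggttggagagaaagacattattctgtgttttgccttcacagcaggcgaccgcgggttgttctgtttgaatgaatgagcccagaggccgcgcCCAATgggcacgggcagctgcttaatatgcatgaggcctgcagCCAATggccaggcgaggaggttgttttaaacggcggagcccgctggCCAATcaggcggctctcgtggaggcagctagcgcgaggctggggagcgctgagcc

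CCAAT was found 3 times in the Hmgb1 window, 4 times in the Hmgb2 window and 3 times in the Hmgb3 window, counting both strands. Of all 32851 promoter windows of this length, 37.4% held CCAAT at least once and 3.37% held it 3 or more times. Hmgb1 has another annotated start (chr5:149051567-149051866, minus strand), whose window held no CCAAT but 4 copies of GGGCGG, a sequence in 35.7% of all windows, and 1 of CACGTG, which is in 7.15%. Hmgn1, Hmgn2 and Hmgn5 had 2, 1 and 2 copies of CCAAT, and the windows of Hmga1 and Hmga2 had none. The count of this motif did not separate Hmgb1 from Hmgb2 and Hmgb3.

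Hmgb1, the most widely expressed of the HMGB genes, lies on the minus strand at chr5:149046702-149184489 (mm10, GENCODE M21). Controls 1 to 3 had 3647, 3624 and 3764 normalized counts, against 2986, 2755 and 2831 for mutants 1 to 3. The ranges did not overlap, the mutant pools being lower, and the 2 groups each varied by only a few percent. The means were 3678 ± 75.1 and 2857 ± 117 (SD, n = 3 pools each), and the log2 difference was -0.37 ± 0.04 (SE). Counting error was at most 1.89% in any pool for this gene.

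Hmgb1 was the 1 member of 9 that passed the adjusted threshold of 0.05 in the limma fit over all 17168 tested genes, of which 0.501% were called in either direction and 0.315% were called lower. It was also the 1 member whose groups did not overlap, which held for 20.2% of all tested genes, in 10.4% with the mutant pools lower and in 9.77% with the mutant pools higher. edgeR on all 6 libraries, edgeR without control pool 3 and DESeq2 also called 1 member, Hmgb1, beside 0.539%, 3.68% and 2.01% of the genes each of them tested. The rule that named the members used this contrast, so nothing is read from these counts. The call did not hold when some single pools were left out: the log2 difference was -0.37 without control pool 1, -0.34 without mutant pool 2 and -0.36 without mutant pool 3, and 0 members were called in each of these fits. Without control pool 3 it was -0.35 and Hmgb1 was called.

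Hmgb2, a close relative of Hmgb1 that is typical of dividing cells, is on the plus strand at chr8:57511907-57515999. Its normalized counts were 6016, 5399 and 5027 in the control pools and 5527, 5530 and 5119 in the mutant pools, in the order of their numbers. The mutant pools lay within the range of the control pools. The log2 difference of Hmgb2 was -0.02 ± 0.06 (SE), and it was -0.08 without control pool 3, 0.05 without control pool 1 and 0.02 without mutant pool 3. Hmgb3, an X-linked HMGB gene known from blood progenitors, had 3222, 3103 and 3266 normalized counts in the control pools and 3226, 3093 and 2960 in the mutant pools. These pools overlapped too, at a log2 difference of -0.05 ± 0.05 (SE).

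Ratios within a library compare the HMGB genes without the scaling between libraries. The log2 ratio of Hmgb1 to Hmgb3 was 0.18, 0.22 and 0.20 in the control pools and -0.11, -0.17 and -0.06 in the mutant pools, so that Hmgb1 had more reads than Hmgb3 in every control pool and fewer in every mutant pool. The log2 ratio of Hmgb1 to Hmgb2 was -0.72, -0.58 and -0.42 in the control pools and -0.89, -1.01 and -0.85 in the mutant pools. It was lower by 0.34 on average in the mutant pools, with no overlap. Both ratios contain Hmgb1, so they restate its difference rather than add to it. The ratio of Hmgb2 to Hmgb3 overlapped between the groups, at a mean difference of 0.03 on the log2 scale.

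**Figure D1:**
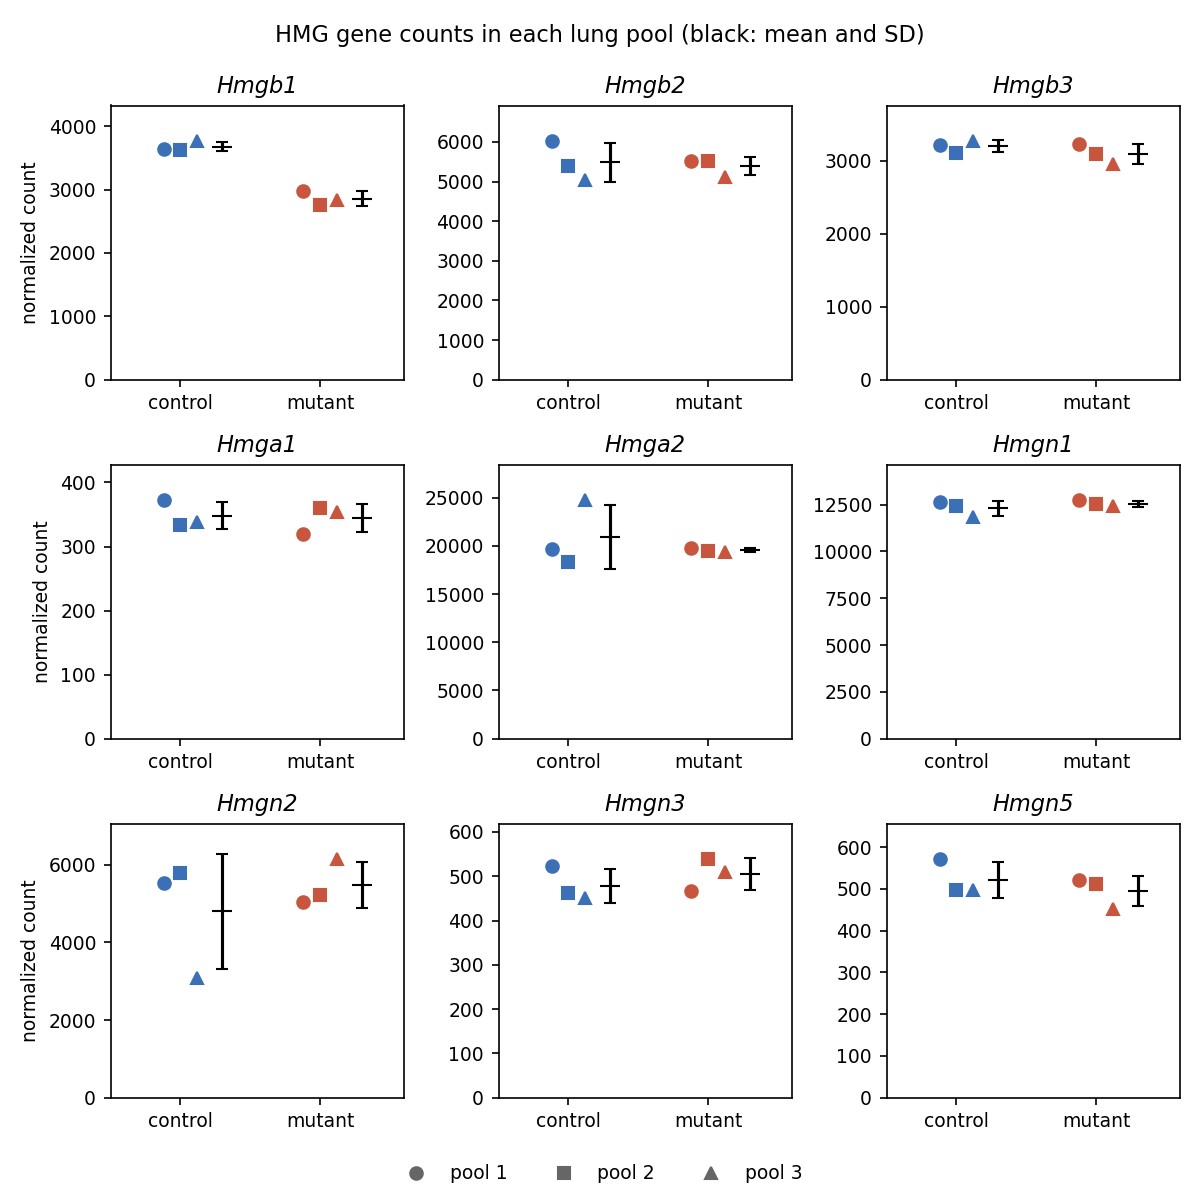
Normalized counts (vertical axes, each from 0) of the 9 HMG genes in the 3 control pools (blue) and 3 mutant pools (red), with 1 marker shape per pool number and the group mean and SD in black. The Hmgb1 values of the mutant pools (2755 to 2986) sit below those of the control pools (3624 to 3764), the other genes overlap, and control pool 3 is apart in Hmga2 (24727) and Hmgn2 (3081).

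Reads of Hmgb1 cannot be told apart in full from those of its copies. Of its longest coding transcript, 46.3% matched another annotated gene over at least 100 bases at 95% identity or more, and those genes were 45 pseudogenes. The annotation gives Hmgb2 5 such pseudogenes and Hmgb3 1, matching 24.1% and 34.6% of the transcript. How the authors' counting treated reads that align to several places is not given in the sources used here. Hmgb4, a germ-cell HMGB gene, was listed at 0 in all 6 pools, and Hmgb1-rs17, a copy of Hmgb1, had at most 5.96 normalized counts in a pool.

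Markers of the epithelium moved in the same direction as Hmgb1. Of 20 epithelial markers tested, 7 were called lower in the mutant pools and 0 higher, 19 had a log2 difference below 0, and their median was -0.41, beside -0.0021 over all tested genes. The summed level of the list was 22946 to 28321 normalized counts in the control pools and 19136 to 20290 in the mutant pools, and none of the 20 was at 0 in all pools. Cdh1, the epithelial cadherin, was 1439 ± 131 in controls and 736 ± 97.7 in mutants (SD, n = 3 pools; log2 difference -0.97, adjusted p = 0.00728 with limma). Cldn6, a tight junction gene, had a log2 difference of -0.71 (adjusted p = 0.0119), and the keratin genes Krt8 and Krt18 had log2 differences of -0.55 and -0.46 (adjusted p = 0.0128 and 0.0263). In whole lungs, fewer epithelial cells and less RNA per cell cannot be told apart. The part of the epithelial markers in the Hmgb1 result was not tested.

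The number of epithelial markers called depends on single pools. It was 0 without control pool 1, 16 without control pool 3, 1 without mutant pool 1, 2 without mutant pool 2 and 0 without mutant pool 3. Of 16 mesenchymal markers, 4 were called higher and 0 lower, among them the collagen genes Col1a1 (log2 difference 0.49, adjusted p = 0.0125 with limma), Col1a2 and Col3a1 and the growth factor gene Fgf10. That count was 0 without control pool 1, 1 without mutant pool 1, 1 without mutant pool 2, 0 without mutant pool 3 and 0 with Xist as a covariate. The mesenchymal sum was 112516 to 118891 in the control pools and 135590 to 142665 in the mutant pools, the opposite direction to Hmgb1. Of 8 mesothelial markers 1, Wt1, was called higher (log2 difference 0.31, adjusted p = 0.0496), but 0 were called in 11 of 18 alternatives, among them those without control pool 1, control pool 2 or any 1 mutant pool. None of 10 endothelial, 10 neural, 10 cardiac muscle, 6 erythroid or 9 macrophage markers was called by limma, and at an unadjusted p under 0.05 endothelial markers had 6 higher, neural markers 3 lower and cardiac muscle markers 2 lower. edgeR on all 6 libraries called none of these either, and DESeq2 called 1 endothelial marker, Tie1, and 1 cardiac muscle marker, Myh6.

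The HMGA genes are shown next with the let-7 sites in their messages. In the RefSeq table (GRCm38.p6), 9 mature let-7 sequences had the seed of let-7a-5p, bases 2 to 8, in capitals here. Only sequences with this seed were kept. The 3′UTR sites that pair with the whole seed are printed below let-7a-5p, with the pairing bases in capitals.

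mmu-let-7a-5p: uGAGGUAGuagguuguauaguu
Hmga2 site 1, chr10:120364225-120364246, minus strand: gccgacattcaatttCTACCTC
Hmga2 site 2, chr10:120362988-120363009, minus strand: ccccactcctcaataCTACCTC
Hmga2 site 3, chr10:120362550-120362571, minus strand: ctgatttgcaaggaaCTACCTC
Hmga2 site 4, chr10:120361692-120361713, minus strand: aatcaaaacacactaCTACCTC
Hmga1 site 1, chr17:27563277-27563298, plus strand: tcctctgttcacaaaCTACCTC

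CTACCTC occurred 4 times in the 3014 bases of the longest 3′UTR annotated for Hmga2 (GRCm38, GENCODE M21) and 1 time in the 1183 bases of Hmga1, on the strand of the message. The 3′UTRs of the other 7 members held none. Of 20896 genes with a 3′UTR, 8.99% held at least 1 site and 12 held 4 or more. Igf2bp1, Lin28b and Trim71 were also among those 12, with 4 sites each, and Lin28a held 2. Other kinds of let-7 pairing were not searched, and the let-7 RNAs themselves were not measured here.

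Hmga2 is on the minus strand at chr10:120361275-120476469. Its normalized counts were 19708, 18358 and 24727 in the control pools and 19786, 19480 and 19348 in the mutant pools. The mutant pools were close to each other (SD 225, n = 3), while control pool 3 was above all other pools. The log2 difference of Hmga2 was -0.09 ± 0.09 (SE), and without control pool 3 it was 0.04. Hmga1, the other AT-hook gene, at chr17:27556497-27563674 on the plus strand, was far lower, with 372, 334 and 338 normalized counts in the control pools and 320, 361 and 354 in the mutant pools. The groups overlapped, with a log2 difference of -0.01 ± 0.08 (SE), which was 0.04 without control pool 1 and 0.04 without mutant pool 1.

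Among the HMGN genes, Hmgn1 had the steadiest counts. Hmgn1, at chr16:96120618-96127729 on the minus strand, had 12620, 12418 and 11850 normalized counts in the control pools and 12729, 12521 and 12414 in the mutant pools. Its highest pool was 1.07 times its lowest, and its log2 difference was 0.03 ± 0.04 (SE). Hmgn2, at chr4:133964738-133968650 on the minus strand, had 5535, 5778 and 3081 normalized counts in the control pools and 5033, 5231 and 6144 in the mutant pools. Control pool 3 was far below the other 5 for Hmgn2, and the highest pool was 1.99 times the lowest. The log2 difference of Hmgn2 was 0.24 ± 0.19 (SE), and it was -0.05 without control pool 3. Of the Hmgn2 transcript 92.3% matched other annotated genes, the largest such share among the members, so its reads cannot be assigned with certainty. These were 12 genes, 10 of them pseudogenes and 1 protein-coding. Such shares were smaller for Hmgn1 (13.4%, 4 pseudogenes), Hmgn3 (7.19%), Hmgn5 (26.2%, 1 pseudogene) and Hmga2 (3.70%).

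Hmgn3, a HMGN gene known from endocrine and neural cells, had 523, 462 and 451 normalized counts in the control pools and 466, 538 and 510 in the mutant pools, with a log2 difference of 0.08 ± 0.08 (SE). It lies at chr9:83109948-83146685 on the minus strand. Hmgn5, an X-linked HMGN gene with a long acidic tail, at chrX:109004534-109013404 on the minus strand, had 571, 497 and 497 in the control pools and 520, 512 and 452 in the mutant pools. Its log2 difference was -0.08 ± 0.08 (SE). In both genes the pools of the groups overlapped, and counting error was at most 4.73% and 4.66%, respectively.

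**Figure D2:**
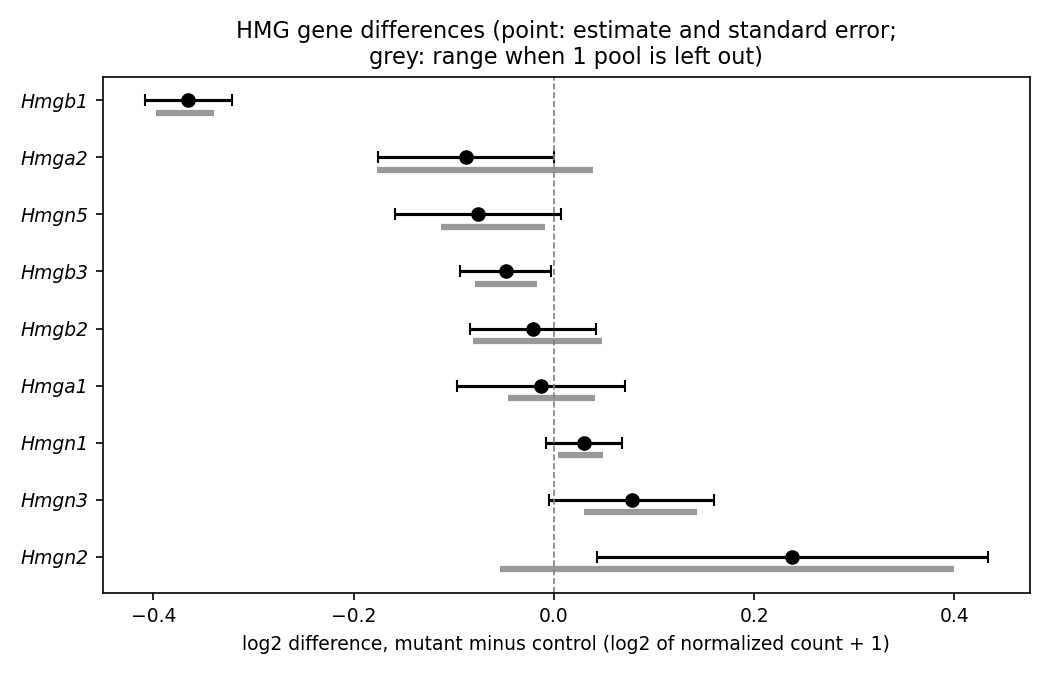
The log2 difference between mutant and control pools (horizontal axis, on log2 of normalized count + 1) of each HMG gene, as the estimate with its standard error in black and as the range over the fits that leave out 1 pool in grey. Hmgb1 stays between -0.40 and -0.34, while the ranges of Hmga1, Hmga2, Hmgb2 and Hmgn2 cross 0.

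In the whole set, 6 members had a log2 difference below 0 and 3 above 0. The median over the 9 members was -0.02, beside -0.0021 over all tested genes. The differences of Hmgb1 and Hmgn2 were larger in size than the median size of 0.10 over all tested genes, and those of the other members were smaller.

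The members covered a 23.3-fold range of level per kb of exon in control lungs, counted over all annotated exons of a gene. This length can far exceed that of the longest coding transcript: 5023 against 2838 bases for Hmgb1 and 3060 against 1265 for Hmgn2. The order of the members therefore depends on the length used. Hmgn1 was highest, at 3817 ± 124 normalized counts per kb (SD, n = 3 pools), and Hmga2 followed at 3091 ± 496. Next came Hmgb2 at 1825 ± 166, Hmgn2 at 1568 ± 487 and Hmgb3 at 1431 ± 37.7. The ranges over control pools overlapped between Hmgb2 and Hmgn2 and between Hmgn2 and Hmgb3, so these neighbours are not separated by this measure. Hmgb1 stood below them at 732 per kb, with a range of 721 to 749, in control pools and at 569 per kb, with a range of 548 to 594, in mutant pools. Hmgn5 at 270 ± 22.0 and Hmgn3 at 256 ± 20.6 overlapped, and Hmga1 was lowest at 164 ± 9.95 per kb.

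**Figure D3:**
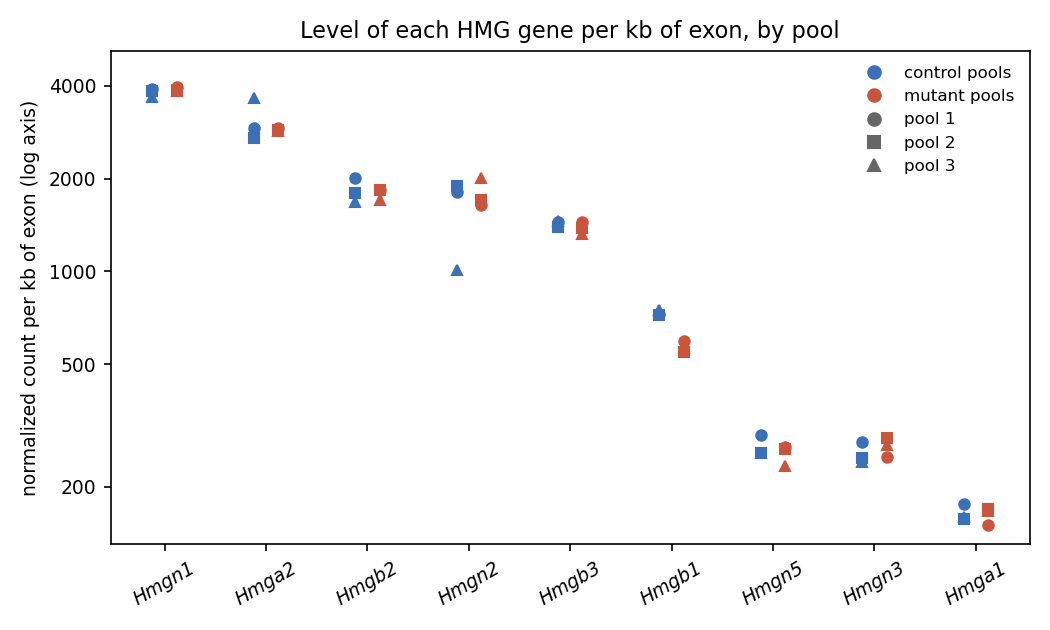
Normalized counts per kb of annotated exon (vertical log axis) for each HMG gene, ordered by the mean of control pools, with control pools in blue, mutant pools in red and 1 marker shape per pool number. Hmgn1 (3817 in control pools) and Hmga2 (3091) are at the top, Hmgb1 is in the middle with the mutant pools below the control pools, and Hmga1 (164) is at the bottom.

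Summed per family, the 3 HMGB genes had 4172, 3909 and 3886 normalized counts per kb in the control pools and 3879, 3775 and 3593 in the mutant pools. The ranges did not overlap, as in 20.2% of all tested genes, though the lowest control pool and the highest mutant pool were nearly equal. This sum includes Hmgb1, while Hmgb2 and Hmgb3 each overlapped between the groups, so nothing further is read from it. The 2 HMGA genes had 3085, 2868 and 3810 per kb in the control pools and 3072, 3046 and 3024 in the mutant pools. The 4 HMGN genes had 6301, 6248 and 5184 per kb in the control pools and 6115, 6149 and 6369 in the mutant pools. The HMGA sum was highest and the HMGN sum lowest in control pool 3, and both overlapped between the groups.

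Control pool 3 was compared with the other 5 pools for the members and for genes of the let-7 pathway. Hmgn2 stood at 55.6% of the mean of the other 5 pools in control pool 3. Of 11458 genes with a mean of at least 100, 35 (0.305%) were at least as far below in that pool on the log2 scale. Hmga2 stood at 128% of the other 5, and 474 of those genes (4.14%) were at least as far above. In all, 3 members (Hmgb1, Hmgb3 and Hmga2) were highest and 4 (Hmgb2, Hmgn1, Hmgn2 and Hmgn3) were lowest in control pool 3, beside 25.4% and 24.3% of all tested genes.

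Genes that carry let-7 sites or act in the pathway were also high in control pool 3. Lin28a, which blocks let-7 maturation in embryonic cells, had 112 normalized counts there and 52.0 to 71.7 in the other 5 pools. Its paralog Lin28b had 473 there and 320 to 388 elsewhere. Igf2bp1, an oncofetal RNA-binding protein gene, had 7310 there and 5797 to 5920 elsewhere, and Trim71, a let-7 target that marks early progenitors, had 224 there and 134 to 185 elsewhere. Of the 14 genes of the let-7 list, Hmga2 not among them, 10 were highest in control pool 3. Xist was highest in the same pool, and so were 4 of the 6 tested erythroid markers, among them Hbb-bh1, an embryonic globin gene, at 15059 against 4545 to 9007 in the other 5. Many markers of some other cell types were lowest there: 7 of 9 macrophage, 7 of 10 endothelial and 5 of 8 mesothelial markers, with 0, 0 and 1 highest. Mesenchymal markers went both ways, with 7 of 16 lowest and 5 highest there. Of 10 cardiac muscle markers, 5 were highest there and 1 was lowest. With log2 Xist as a covariate, the log2 difference of Hmga2 was 0.11 and that of Hmgn2 was -0.15, while that of Hmgb1 was -0.38. The part of sex or of these cell types in the values of control pool 3 was not tested.

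**Figure D4:**
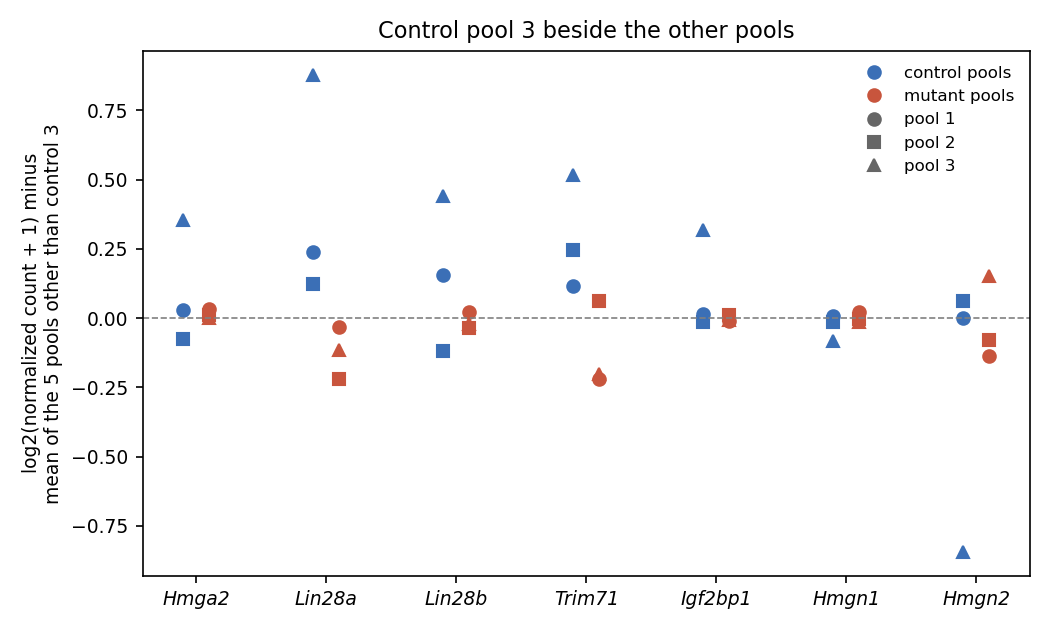
Log2 of normalized count + 1 for 7 genes (horizontal axis) in each pool, minus the mean of the 5 pools other than control pool 3 (vertical axis), with control pools in blue, mutant pools in red and 1 marker shape per pool number. Control pool 3 (blue triangle) is 0.36 above for Hmga2, 0.88 above for Lin28a, 0.44 above for Lin28b, 0.52 above for Trim71, 0.32 above for Igf2bp1, 0.08 below for Hmgn1 and 0.84 below for Hmgn2.

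Genes of related function were followed in 9 lists with 152 tested genes. None of them was called by limma or by edgeR on all 6 libraries. At an unadjusted p under 0.05, limma gave 30 lower and 7 higher, beside 6.89% lower and 6.67% higher over all tested genes. DESeq2 called 4 of them, Sox2, Sox21, Hjurp and Cd24a. The number was 2 without control pool 2 and 11 without control pool 3. The median log2 difference over the 152 genes was -0.05.

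The genes closest to the HMGB proteins in structure are others with an HMG box. Of 18 tested HMG-box chromatin proteins, 11 had a log2 difference below 0 and 7 above, with a median of -0.02, and 1 was at an unadjusted p under 0.05. This was Cic, a repressor of growth factor signaling targets, with a log2 difference of 0.13 (adjusted p = 0.254 with limma). Ssrp1, the HMG-box subunit of the FACT chaperone, had a log2 difference of -0.10 (adjusted p = 0.394). Of 21 SOX and TCF/LEF factors, 3 were higher and 4 lower at an unadjusted p under 0.05. Sox2, a marker of proximal airway progenitors, had 462, 423 and 553 normalized counts in the control pools and 390, 304 and 341 in the mutant pools, with a log2 difference of -0.47 (adjusted p = 0.124 with limma and 0.0233 with DESeq2).

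Linker histones, which HMGN proteins displace, included 8 tested genes with 5 below 0 and 3 above and a median of -0.15. H1f0, the replacement linker histone, had a log2 difference of 0.10 (adjusted p = 0.252 with limma), and H1fx had 0.16 (adjusted p = 0.311). The summed linker histone level was 12103 to 12683 normalized counts in the control pools and 13112 to 13967 in the mutant pools, the opposite sign to the median. Nearly all of this sum came from H1f0 and H1fx, with means of 8482 and 3708 in the control pools. The other tested linker histones had few counts, and the median was set by them. Of 18 histone chaperones, 13 were below 0, with Hjurp, the chaperone of the centromeric histone CENP-A, at -0.39 (adjusted p = 0.0594 with limma and 0.0188 with DESeq2) and Supt16, the partner of Ssrp1, at -0.14 (adjusted p = 0.202 with limma). Of 25 other architectural proteins, such as condensin and scaffold attachment proteins, 20 were below 0, with a median of -0.05. Without control pool 3 the median was -0.07 for linker histones and -0.02 for the architectural proteins, of which 15 were below 0.

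Genes of the let-7 pathway had 12 of 14 log2 differences below 0 and a median of -0.11, and 4 were lower at an unadjusted p under 0.05. Since 10 of the 14 were highest in control pool 3, the same counts without that pool were 10 below 0, a median of -0.03 and 2 lower. Xpo5, the exporter of microRNA precursors, had -0.15 (adjusted p = 0.141 with limma) and Trim71 -0.41 (adjusted p = 0.212). Receptors of released HMGB1 had 4 of 8 below 0, or 5 of 8 without control pool 3, with Cxcr4 at -0.28 (adjusted p = 0.151) and Cd24a, which restrains the response to HMGB1, at -0.24 (adjusted p = 0.169 with limma and 0.0237 with DESeq2).

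Genes of the cell cycle were examined because Hmgb2 and other HMG genes are high in dividing cells. Of 20 S phase genes 18 were below 0, with a median of -0.07, and 7 were lower and 1 higher at an unadjusted p under 0.05. Without control pool 3 the median was -0.11 and 2 were called. Mcm7 of the replicative helicase had a log2 difference of -0.18 (adjusted p = 0.159 with limma) and Rrm2 of ribonucleotide reductase -0.15 (adjusted p = 0.191). Of 20 G2/M genes 17 were below 0, with a median of -0.07, among them the mitotic kinase gene Aurka at -0.16 (adjusted p = 0.144) and the cyclin gene Ccnb1 at -0.16 (adjusted p = 0.205). Without control pool 3 the G2/M median was -0.07 and 4 were called.

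The genes whose levels over the 6 libraries were most like the summed normalized counts of a family were found among 11448 tested genes with a mean of at least 100 that are no members. Usp34, a ubiquitin protease, and Ptpn14, a tyrosine phosphatase, were closest to the HMGA sum, with r = 0.995 and 0.995 over 6 libraries. That sum is nearly all Hmga2, whose control mean was 20931 against 348 for Hmga1. Ckb, the brain-type creatine kinase, and Rnd2, a small GTPase, were closest to the HMGB sum (r = 0.995 and 0.993). Snx17, a sorting nexin, and Dbi, an acyl-CoA-binding protein, were closest to the HMGN sum (r = 0.991 and 0.991). These r values are the highest of many on 6 points that share 2 groups and control pool 3, and they are given as a description.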

How the data were processed

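The authors deposited 1 table for the 6 libraries, whose signal values are normalized counts (reads per gene divided by a library size factor). The submitters' processing notes name Trim Galore, HISAT2, featureCounts, DESeq2 and mm10. Sequencing was on a BGISEQ 500. Deposited log2 fold changes, test statistics (a score) and p-values are the authors' own comparison and were not used. Gene symbols of 27 genes had become dates and were left so.

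limma 3.58.1 in R 4.3.3 (lmFit, eBayes with a trend) was run on log2(normalized count + 1). Genes needed a value of 1 or more in 3 or more libraries. Adjustment was Benjamini-Hochberg with a threshold of 0.05, and no block was used. The pseudocount slightly understates changes of low genes. The normalized counts were whole multiples of 1 read for 100% of values in each library (tolerance 0.001), and edgeR 4.0.16 and DESeq2 1.42.0 were run on these reads as alternatives. The fits were tested on simulated data. Pools are separate lungs, but the labels do not say whether from separate litters. The p-values therefore set a group difference against the spread between these pools only. Values after ± are SDs between pools or SEs of the limma fit. These SEs are moderated, drawing the spread of each gene toward that of genes of similar level. They can be smaller than the spread between the pools of 1 gene. Counting errors cover the sampling of reads only.

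Coordinates and exon lengths are from GENCODE M21. Promoters and mature microRNAs are from RefSeq. Copies were searched with blastn 2.17.0, and the copy search of 1 member is not reported here.

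The members and gene lists were chosen with earlier results of these data known. Named genes are the members, Rptor, Xist, from each list up to 5 called genes by adjusted p (otherwise the 2 with the lowest p), and the 2 genes most like each family sum. Genes of the let-7 pathway shown for control pool 3, Hbb-bh1 in that pool and the neighbours of Hmgb1 and Hmgn2 were chosen after their values were seen.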

Additional observations from a re-analysis of the deposited data

How the results depend on the processing

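In 18 alternatives the log2 difference of Hmgb1 was -0.40 to -0.34, and Hmgb1 was called in 13 of them. limma without the trend called 8 genes, 0 of them members, and no filter on low values gave 18 genes and 0 members. DESeq2 on recovered reads called 279 genes and 4 related genes, and edgeR on the recovered reads of 5 libraries without control pool 3, an alternative chosen after seeing the data, called 545 genes and 14 related genes. Leaving out 1 pool gave 1 to 468 genes called, 0 to 1 members and 0 to 11 related genes. The genes called were 1 without control pool 1, 147 without control pool 2, 468 without control pool 3, 12 without mutant pool 1, 21 without mutant pool 2 and 1 without mutant pool 3. The cause was not tested. With Xist as a covariate Hmga1, Hmga2, Hmgn1 and Hmgn2 changed sign (0.08, 0.11, -0.0046 and -0.15). Hmgb1, Hmgb3, Hmgn3 and Hmgn5 kept their sign in all 18.

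Pools with the same number had correlations of their deviations of -0.02, 0.10 and 0.03, so the numbers do not pair them. With a replicate block 71 genes, 1 member and 1 related gene were called.

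Depth limited little: counting error was at most 5.65% for a member, in Hmga1.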

Other observations

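The coding genes next to Hmgb1 and Hmgn2 were looked at after the values of the members were seen. Around Hmgb1, whose mutant pools were all below the control pools, the 2 nearest tested coding genes on each side overlapped between the groups. Uspl1 starts at 149184350 on chromosome 5 and overlaps the 5′ end of Hmgb1 in GENCODE M21, at 149184489. The Hmgb1 promoter windows given above do not lie there but at 149053307 and below. Uspl1 had 1830, 1875 and 2007 normalized counts for controls 1 to 3, against 1885, 1882 and 1861 for mutants 1 to 3 (log2 difference -0.02, adjusted p = 0.894 with limma). Katnal1, on the other side, had a log2 difference of 0.04 (adjusted p = 0.851), Ubl3 of -0.04 (adjusted p = 0.76) and Alox5ap of 0.21 (adjusted p = 0.643).

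Hmgn2 and Lin28a lie close together on chromosome 4, with Dhdds between them, and control pool 3 was the lowest pool for Hmgn2 and the highest for Lin28a. Dhdds had 1488 normalized counts in control pool 3 and 1427 to 1524 over all pools. Arid1a, on the other side, had 9186 in control pool 3, its highest pool, and Rps6ka1 had 1480, its lowest.

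Over the 6 libraries, log2 values of Hmga2 and Hmgn2 had r = -0.96, the most negative of the member pairs, and both had control pool 3 as their extreme. The most positive pair was Hmgb2 and Hmgn5 (r = 0.87). These are descriptions over 6 pools that share depth, groups and control pool 3.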
